A study of Homo sapiens with 6 samples.

Results

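Expression of 5 plasminogen activation genes, PLAU, PLAUR, PLAT, SERPINE2 and SERPINB2, was followed in UWB1.289 cells after Olaparib. The genes were chosen by name and matched by symbol to the Ensembl identifiers of the gene counts table, where all 5 were found among 63677 identifiers. UWB1.289 is a BRCA1-deficient human ovarian carcinoma cell line, labelled WT for genotype by the submitters, and Olaparib inhibits the DNA repair enzyme PARP1. RNA was sequenced in 3 samples after 24 h with 4 µM Olaparib and in 3 samples after 24 h with DMSO, the vehicle, with no other agent or allele in either group. The design text of the series gives 10 µM, whereas the sample labels and the paper give 4 µM. All samples came from this single cell line, and cells were detached with trypsin before lysis according to the paper.

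Plasminogen is an inactive blood protease precursor that is cut to plasmin, which digests fibrin and matrix proteins and releases or activates growth factors. The cut is made by urokinase (uPA, encoded by PLAU), which works largely at the cell surface on its receptor uPAR (PLAUR), and by tissue plasminogen activator (tPA, PLAT), which works mainly on fibrin. Serpins block these activators by trapping them in a covalent complex: SERPINE2 encodes protease nexin-1, which also traps thrombin, and SERPINB2 encodes PAI-2. Urokinase and its receptor are well known from invasive carcinomas, ovarian carcinoma included. Transcript levels do not give the activity of the proteases, which depends on secretion, cleavage and inhibition.

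Libraries held 35360458 to 39640775 counts. Levels are given as TPM, a level per length of all annotated exons of a gene, scaled to the same total in each sample. All 8 markers of Müllerian or ovarian carcinoma epithelium (PAX8, EPCAM, KRT7, KRT8, KRT18, KRT19, MUC16 and CDH1) lay above 1 TPM in every sample. Their summed level was 11921 to 12406 TPM after Olaparib and 11819 to 12008 TPM after DMSO, most of it from KRT7, KRT8 and KRT18. Leukocyte markers summed to 3.64 to 4.25 TPM after Olaparib and 2.63 to 3.43 TPM after DMSO, with 1 of 5 (CD14) above 1 TPM in every sample. Fibroblast markers summed to 15.1 to 17.2 TPM and 15.9 to 17.1 TPM, with 2 of 5 (COL1A1 and COL1A2) above 1 TPM. The 3 endothelial markers summed to 24.8 to 25.7 TPM after Olaparib and 25.7 to 27.3 TPM after DMSO, most of it from CDH5, while PECAM1 was at 0 in every sample. In the edgeR test described below, PAX8 (log2 fold change 0.10, adjusted p = 0.03996) and VWF (0.68, adjusted p = 0.0106) were the markers that passed, and VWF went from 41.8 ± 1.96 (SD, n = 3) in DMSO to 67.4 ± 3.17 (n = 3) normalized counts in Olaparib. The part of these markers in the results for the plasminogen activation genes was not tested.

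Upstream sequences are shown for both serpin genes, the member that passed the test and the one almost without reads. The windows of PLAU and PLAUR and a further window of SERPINE2 were searched in the same way but overlap annotated exons and are not printed, and PLAT was not searched. The 250 bases before a RefSeq transcript start were taken from GRCh38.p14, and neither stretch overlaps an exon of GENCODE release 44. Capitals mark matches, on either strand, to the AP-1 letters TGANTCA, the E-box CACGTG, the GC box GGGCGG, the CCAAT box CCAAT and the TATA box TATAAA, which were chosen after the sequences had been read. Other starts are annotated for SERPINE2, and counts per gene do not tell from which start the reads came. The SERPINE2 window printed lies inside the annotated span of the gene, and another start, at 224038640, lies further upstream. The SERPINB2 window also lies inside the annotated span of its gene, which begins upstream of it at 63871692.
SERPINE2, chr2:224031479-224031728, minus strand: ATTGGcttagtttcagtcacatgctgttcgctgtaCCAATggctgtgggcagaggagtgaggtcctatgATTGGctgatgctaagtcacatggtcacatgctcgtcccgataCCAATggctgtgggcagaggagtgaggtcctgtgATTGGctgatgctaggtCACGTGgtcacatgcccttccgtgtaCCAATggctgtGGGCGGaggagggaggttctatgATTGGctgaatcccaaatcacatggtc
SERPINB2, chr18:63887455-63887704, plus strand: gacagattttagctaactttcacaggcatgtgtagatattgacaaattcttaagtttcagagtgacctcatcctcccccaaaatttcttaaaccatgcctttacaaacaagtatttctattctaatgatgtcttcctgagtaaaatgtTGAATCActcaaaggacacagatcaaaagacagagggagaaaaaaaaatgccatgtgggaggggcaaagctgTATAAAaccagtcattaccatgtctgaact
The SERPINE2 stretch holds 7 matches to the CCAAT letters, 3 on the strand printed and 4 on the other. At least as many were found in 7 of 34788 RefSeq windows of the same length (0.0201%), and any match in 32.0%. Most of the 7 matches in the SERPINE2 stretch lie in letters that recur along it with few changes. They are therefore not independent of each other. The CCAAT letters were also chosen after this sequence had been read, so the low share of windows is a description only. The SERPINE2 stretch also holds an E-box match, as 6.31% of windows do, and a GC box match, as 42.6% do. The SERPINB2 stretch holds an AP-1 match, found in 6.59% of windows, and a TATA box match 24 bases before the RefSeq start, found in 10.8%. The further SERPINE2 window (chr2:224038641-224038890) holds no CCAAT and no E-box match but 2 GC box matches. The PLAUR window holds 1 AP-1 match, and of the 2 PLAU windows one holds 1 CCAAT match and the other 3 GC box matches. These matches describe the letters only and are not evidence that a factor binds there.

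The question put to the data was whether Olaparib changed the transcripts of the activators, their receptor and their inhibitors. SERPINE2 was higher after Olaparib by 18.4%, whereas PLAU, PLAUR and PLAT did not pass the test and SERPINB2 was too low to be tested. Of 21729 genes with more than 10 counts in total, 3.36% passed an adjusted p of 0.05 in the quasi-likelihood F-test of edgeR, with p values adjusted over all genes by the Benjamini-Hochberg method (2.15% higher and 1.21% lower after Olaparib). Among the 4 members tested, 1 passed and was higher. With a change above 1.2-fold as a further condition, 1.21% of all genes passed and none of the 4 members did. In bulk RNA, a change in the share of cells that hold a transcript and a change in its amount per cell cannot be told apart. Values below are normalized counts, that is, counts scaled between libraries with TMM factors (trimmed mean of M values). All 4 members tested had a positive log2 fold change, beside a median of -0.0042 over all genes tested. The 95% intervals of PLAU and PLAUR included 0, so the shared sign is a description only.

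PLAU (ENSG00000122861, chromosome 10, 73909177 to 73917496 on GRCh38, plus strand) encodes urokinase and was by far the most abundant member. It had 30773, 30975 and 30433 normalized counts in Olaparib replicates 1, 2 and 3, and 29228, 29751 and 30497 in DMSO replicates 1, 2 and 3. Olaparib replicate 3 lay below DMSO replicate 3, so the groups overlapped. The means were 30727 ± 274 (SD, n = 3) and 29825 ± 637 (n = 3), giving a log2 fold change of 0.043 with a standard error (SE) of 0.026, and edgeR's adjusted p was 0.483. The 95% interval ran from -0.011 to 0.097 on the log2 scale, or from -0.747% to 6.93%. Of the exonic bases of PLAU, 31.0% overlap C10orf55 on the other strand. The strand setting of the counting is not given in the paper's text, so reads there could not be assigned with certainty. C10orf55 itself had 157 to 175 counts per sample, which does not show how many reads in the shared bases were counted for PLAU.

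PLAUR (ENSG00000011422, chromosome 19, 43646095 to 43670547, minus strand), the urokinase receptor, had 2939, 3008 and 2935 normalized counts with Olaparib and 2932, 2835 and 2849 after DMSO. The groups touched without overlapping, with Olaparib replicate 3 just above DMSO replicate 1. The means were 2961 ± 41.1 (SD, n = 3) and 2872 ± 52.4 (n = 3). On the log2 scale the difference was 0.044 (SE 0.038, 95% interval -0.032 to 0.12), and edgeR's adjusted p was 0.653. On the TPM scale DMSO replicate 1, at 65.2 TPM, lay above Olaparib replicates 1 and 3, at 64.3 and 63.8 TPM, so the separation did not hold on that scale.

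PLAT (ENSG00000104368, chromosome 8, 42174718 to 42207709, minus strand), the gene of tissue plasminogen activator, had 597, 615 and 572 normalized counts with Olaparib and 534, 533 and 563 after DMSO. All 3 Olaparib samples lay above all 3 DMSO samples, by a narrow gap between Olaparib replicate 3 and DMSO replicate 3. The means were 595 ± 22.0 (SD, n = 3) and 544 ± 16.9 (n = 3), a log2 fold change of 0.13 (standard error 0.053). Its unadjusted p was 0.0214 and its adjusted p 0.218 (edgeR), so the difference did not pass. The 95% interval of the change, from 1.42% to 17.9%, carries no correction for the number of genes.

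SERPINE2 (ENSG00000135919, chromosome 2, 223975045 to 224039318, minus strand), the gene of protease nexin-1, had 461, 444 and 456 normalized counts with Olaparib and 393, 342 and 414 after DMSO. The Olaparib samples lay close together and above every DMSO sample, and DMSO replicate 2 was the lowest of the 6. The means were 454 ± 8.50 (SD, n = 3) and 383 ± 37.0 (n = 3), which is 0.24 on the log2 scale (SE 0.065) with an adjusted p of 0.0291 in edgeR. The 95% interval ran from 0.11 to 0.38 on the log2 scale, or from 7.93% to 29.8%. The call was lost in 6 of 14 alternatives. DESeq2's Wald test gave an adjusted p of 0.108 at a log2 fold change of 0.24. Without DMSO replicate 2 the log2 fold change was 0.17 and the adjusted p 0.264 (edgeR). The adjusted p from edgeR was 0.0722, 0.0583 and 0.104 without Olaparib replicates 1, 2 and 3, 0.0630 without DMSO replicate 1 and 0.0244 without DMSO replicate 3.

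SERPINB2 (ENSG00000197632, chromosome 18, 63871692 to 63903888, plus strand), the gene of PAI-2, had 0 counts in each Olaparib sample and 1 count in each DMSO sample. These 3 counts in all fell under the minimum for testing, and no fold change is given. Of its exonic bases, 20.0% overlap another annotated gene on the same strand, which was not analysed here. A count of 0 allows up to 3 counts per library, which corresponds to 0.105 to 0.109 TPM in the Olaparib samples, for counting error only. A difference between the groups was therefore not detectable at this depth.

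Over all genes tested, 19.3% had 3 Olaparib samples that did not overlap the 3 DMSO samples in normalized counts, as was so for PLAUR, PLAT and SERPINE2. With 3 samples in each group, the smallest p of an exact permutation test is 0.1, and the fit across all genes was therefore used for each gene.

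**Figure D1:**
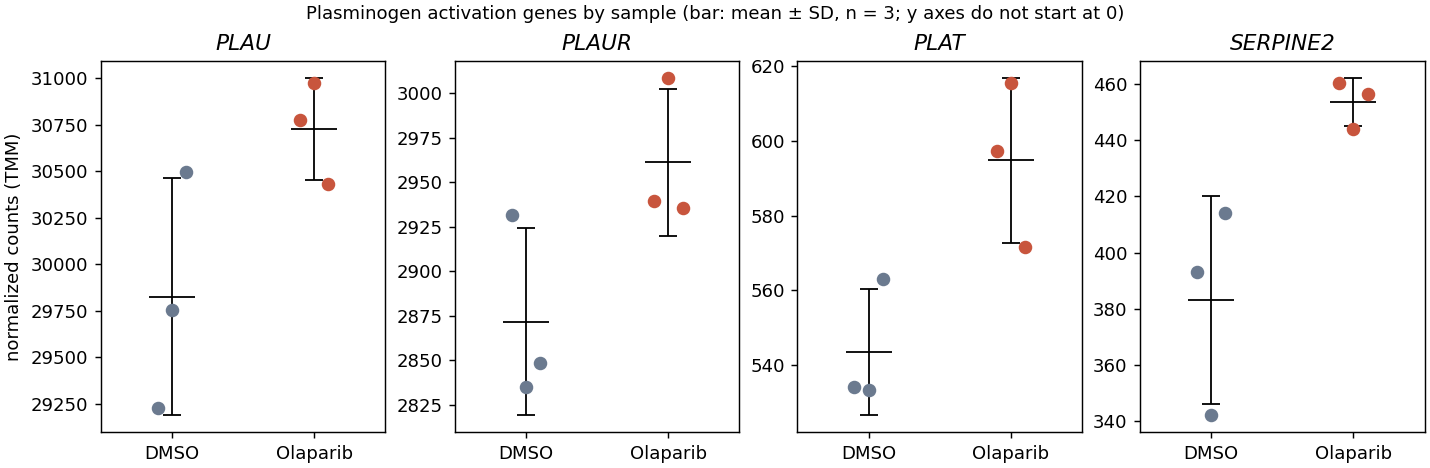
Normalized counts (TMM, y axis, a separate scale for each gene that does not start at 0) of PLAU, PLAUR, PLAT and SERPINE2 in each DMSO and Olaparib sample, with points for samples in replicate order and bars for the mean ± SD (n = 3). The groups overlap for PLAU, almost touch for PLAUR and PLAT, and lie apart for SERPINE2, whose lowest DMSO sample has 342 normalized counts.

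Levels were compared between genes per length, as TPM from the union of each gene's annotated exons. PLAU had 1012 ± 10.8 TPM (SD, n = 3) after Olaparib and 986 ± 8.19 TPM (n = 3) after DMSO, and by its mean over all samples it ranked 101 of 20867 tested genes with an annotated length. PLAUR followed with 64.5 ± 0.860 and 62.8 ± 2.02 TPM, rank 2614. PLAT had 7.43 ± 0.284 and 6.82 ± 0.151 TPM, rank 9636, and SERPINE2 had 4.92 ± 0.103 and 4.17 ± 0.399 TPM, rank 10839. SERPINB2 had 0 TPM in every Olaparib sample and 0.033 to 0.038 TPM in the DMSO samples. In this order no neighbours overlapped in any of the 6 samples. For PLAT and SERPINE2 the order of the means after Olaparib depended on the length used. Their annotated exons span 7770 and 8957 bases, but their MANE Select transcripts, the representative transcript of each gene, only 3062 and 2226. Per MANE Select transcript, an alternative added after the data were seen, PLAT had 13.0 TPM and SERPINE2 13.7 TPM after Olaparib, and 12.02 and 11.7 TPM after DMSO. On that scale PLAT (11.8 to 13.4 TPM) and SERPINE2 (10.4 to 14.0 TPM) overlapped over the samples, whereas PLAU stayed above PLAUR and PLAUR above PLAT.

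**Figure D2:**
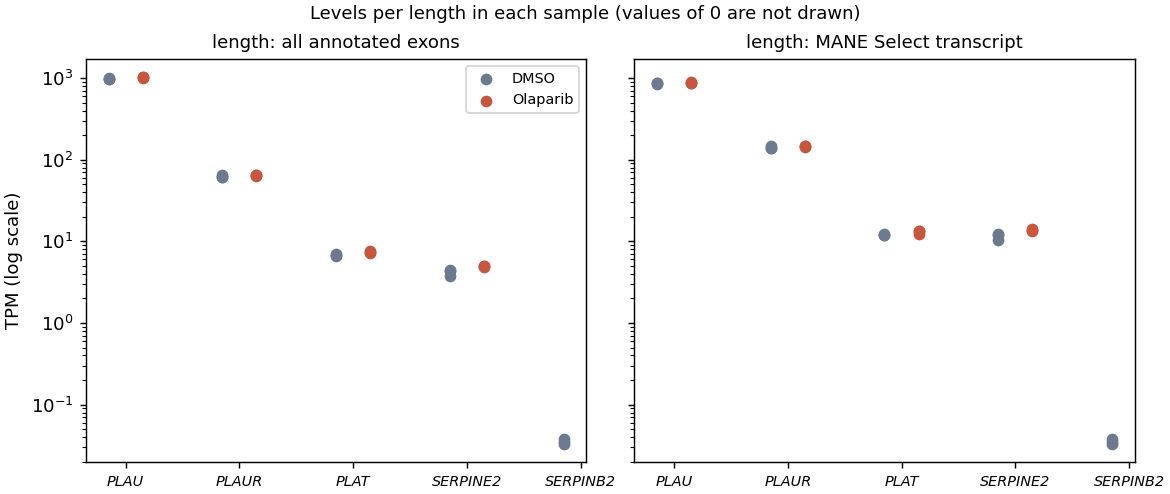
TPM on a log scale (y axis) of the 5 genes in each DMSO and Olaparib sample, with length taken from all annotated exons on the left and from the MANE Select transcript on the right, and values of 0 left out. PLAU is near 1000 TPM and SERPINB2 under 0.04 TPM on both sides, and SERPINE2 moves level with PLAT on the right.

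In TPM, PLAU was 15.6 to 15.8 times PLAUR after Olaparib and 15.1 to 16.2 times after DMSO, so the ratio of the activator's transcript to that of its receptor overlapped between the groups. Per MANE Select transcript the ratio was 6.01 to 6.11 and 5.82 to 6.25. PLAU was 133 to 140 times PLAT after Olaparib and 143 to 147 times after DMSO, and 65.8 to 69.6 and 70.8 to 72.9 times per MANE Select transcript. These ratios were chosen after the values were seen and are given with no test. PLAU made up 99.3% of the summed TPM of PLAU and PLAT in both groups.

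The other genes of the plasminogen system were taken from 5 lists with 39 genes, all of them found in the table. Of these, 30 had more than 10 counts in total, and 1 was higher, 1 was lower and 28 did not pass an adjusted p of 0.05 (3.36% of all genes passed). Among genes with a mean of at least 1000 normalized counts, to which both genes that passed belong, 5.88% did. Not all of the 30 tested list genes reach that mean, so this share is not a background for all of them. The median change of the 30 tested list genes on the log2 scale was 0.022, beside -0.0042 over all genes tested.

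Plasminogen itself was almost without reads, with PLG at 2 counts over all 6 samples, while the levels of its surface receptors differed widely. Annexin A2 (ANXA2) and its partner S100A10, which together bind plasminogen and tPA at the membrane, had 605 and 1416 TPM after Olaparib and 617 and 1454 TPM after DMSO. ENO1, a glycolytic enzyme that also binds plasminogen at the cell surface, had 2645 TPM in both groups. HMGB1, a chromatin protein, had 201 and 211 TPM, and PLGRKT, a plasminogen receptor in the membrane, had only 29.8 and 30.8 TPM. None of the 5 tested genes of this list passed, and their median log2 fold change was -0.032.

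Among 6 other inhibitors of the activators or of plasmin, 5 were tested and none passed (median log2 fold change 0.13). SERPINI1 (neuroserpin, an inhibitor of tPA) and SERPINF2 (alpha2-antiplasmin) had log2 fold changes of -0.021 and 0.021 and did not pass. SERPING1 (C1 inhibitor), A2M (alpha2-macroglobulin) and CPB2 (a carboxypeptidase that slows fibrinolysis) had only 38, 147 and 29 counts over the 6 samples. SERPINA5 had 0 counts in every sample, which allows up to 3 counts per library.

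Of 7 proteases that can activate pro-urokinase or plasminogen, 5 were tested and none passed (median log2 fold change 0.028). ST14 (matriptase), with 384 and 378 TPM after Olaparib and DMSO, and CTSB (cathepsin B), with 69.0 and 65.7 TPM, had the highest levels of this list. Their log2 fold changes were 0.028 and 0.077 (edgeR, adjusted p = 0.722 and 0.195). KLKB1 and HABP2 had 9 and 1 counts over the 6 samples.

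Of 13 partners and clearance receptors of uPAR, 12 were tested, of which 1 rose and 1 fell (median log2 fold change 0.027). ITGB3 (ENSG00000259207), the beta3 chain of the vitronectin receptor, had 1968, 1954 and 2020 normalized counts with Olaparib and 1662, 1587 and 1580 after DMSO. The rise was 0.30 (log2, SE 0.041) with an adjusted p of 1.2e-05 in edgeR, and it passed under all 14 alternatives. Another annotated gene on the same strand overlaps 33.2% of its exonic bases and had 0 counts in every sample. That does not show whether reads in the shared bases were counted for ITGB3. ITGA3 (ENSG00000005884), the alpha3 chain of a laminin-binding integrin that associates with uPAR, had 17026, 17815 and 16913 normalized counts with Olaparib and 18332, 18909 and 18915 after DMSO. ITGA3 fell by 0.12 (log2, SE 0.028) with an adjusted p of 0.0109 in edgeR, but the adjusted p was 0.105 without Olaparib replicate 3, 0.0849 without DMSO replicate 2 and 0.0633 without DMSO replicate 3. ITGB1, the beta chain that pairs with ITGA3 and ITGA5, had a log2 fold change of 0.042 (edgeR, adjusted p = 0.527). VTN, the gene of vitronectin, a ligand of uPAR and of integrins, had 0 counts in every sample, which allows up to 3 counts per library.

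Of 7 substrates of the activators or plasmin, MST1, PDGFC and PDGFD were tested and none passed (median log2 fold change 0.053). HGF and the fibrinogen genes FGA, FGB and FGG had 5, 1, 1 and 7 counts over the 6 samples.

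**Figure D3:**
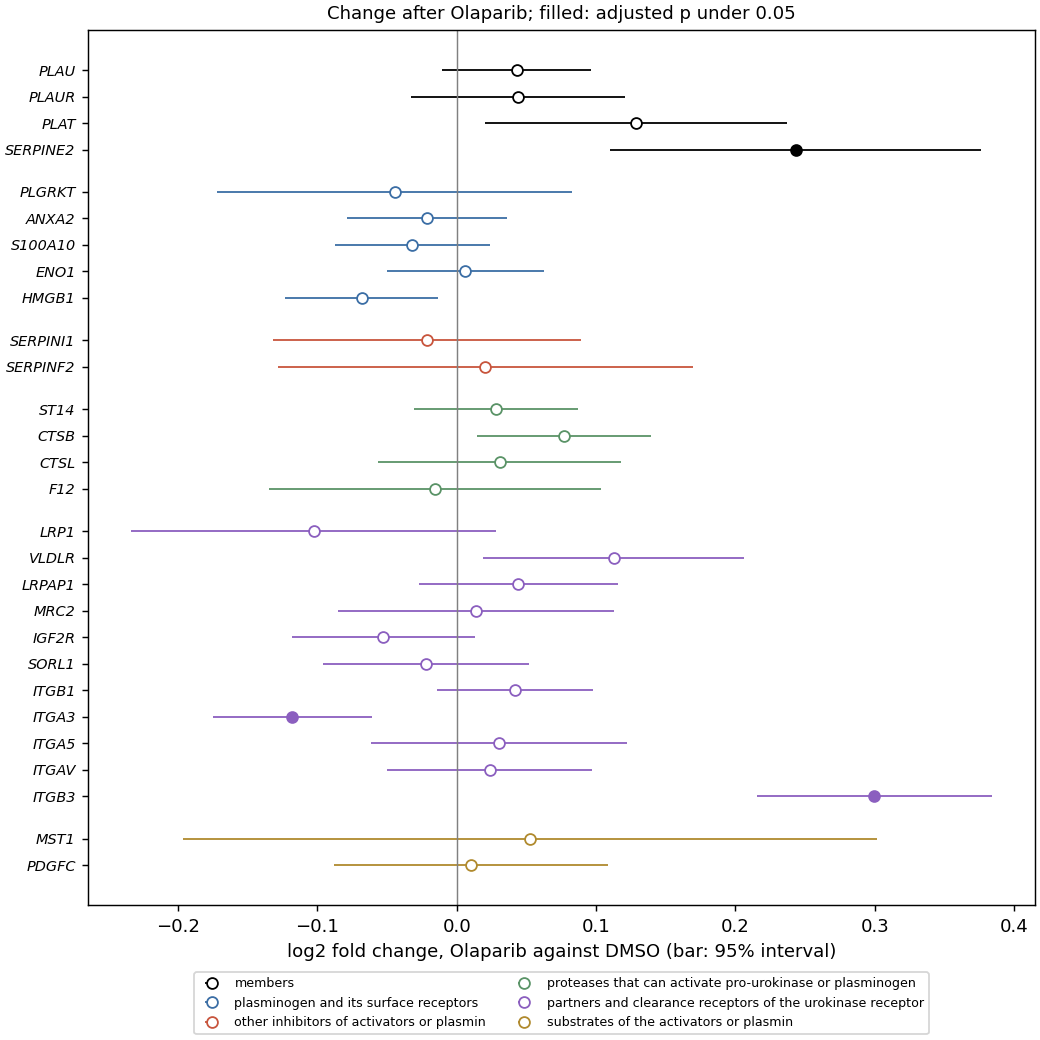
Log2 fold change after Olaparib against DMSO (x axis) with its 95% interval for the 4 tested members and for list genes with a mean of at least 100 normalized counts, coloured by list and filled where the adjusted p was under 0.05. SERPINE2 and ITGB3 are filled on the right at 0.24 and 0.30, ITGA3 is filled on the left at -0.12, and PLAU and PLAUR lie close to 0.

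For SERPINE2, the member that passed, the 3 genes with the most similar pattern among 11997 genes with a mean of at least 100 normalized counts were SLC1A3, CDKN3 and NSG1. Pearson's correlation of log2 CPM (counts scaled to library size) with SERPINE2 over the 6 samples was 0.988, 0.988 and 0.985. These values are a description over 6 samples that fall into 2 treatment groups. The log2 fold changes of the 3 genes were 0.096, 0.10 and 0.21, and none passed the test (edgeR, adjusted p = 0.272, 0.244 and 0.228).

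**Figure D4:**
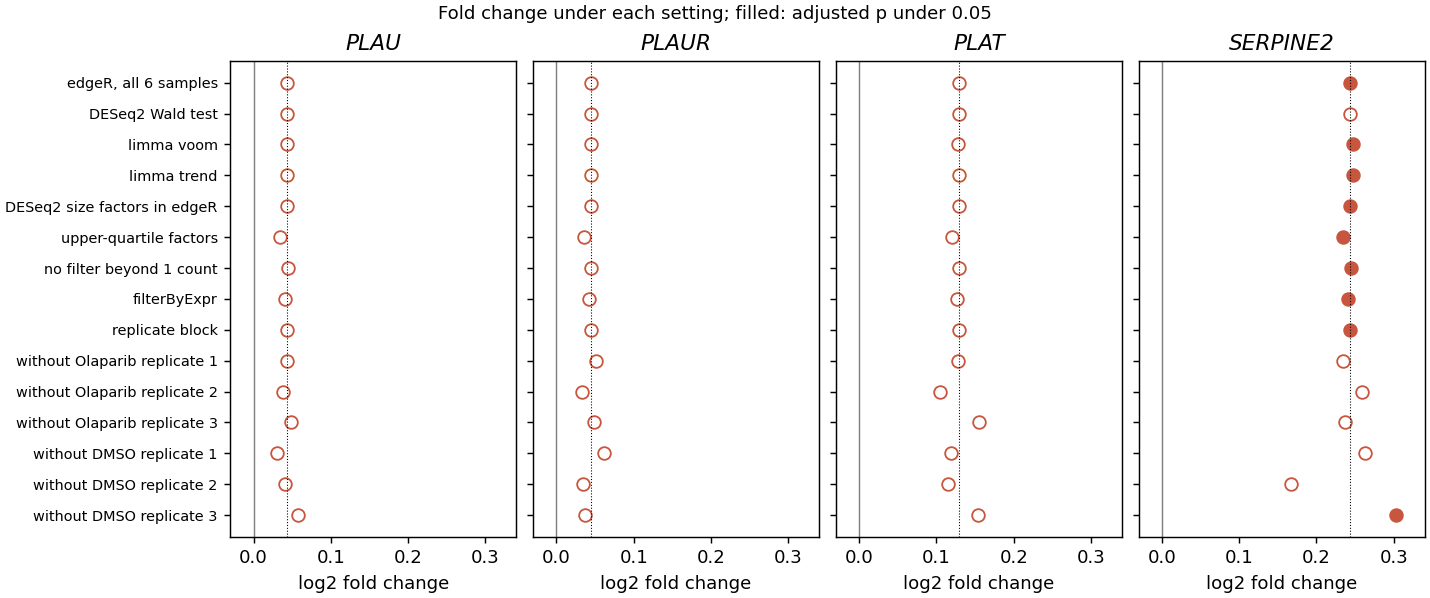
Log2 fold change (x axis) of PLAU, PLAUR, PLAT and SERPINE2 under edgeR with all 6 samples and under each alternative (y axis), filled where the adjusted p was under 0.05, with a dotted line at the value with all samples. Values lie right of 0 in every setting, and filled points occur only for SERPINE2, in 9 of 15 settings, with the lowest value (0.17) without DMSO replicate 2.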

How the data were processed

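RNA of 6 samples, 3 with Olaparib and 3 with DMSO by their titles, was sequenced from poly(A)-enriched stranded libraries. The authors deposited raw read counts per Ensembl gene, without normalization, made according to the paper with Trimmomatic, STAR on GRCh38 (Ensembl release 96), Picard and featureCounts. Its text does not name the strand setting or say whether duplicates were removed. Replicates differed by more than sampling noise (chi-square per degree of freedom 1.81 to 4.11 over 15525 genes).

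Genes with more than 10 counts in total were normalized with TMM (factors 0.995 to 1.01) and compared by the quasi-likelihood F-test of edgeR (no block for replicate), called at an adjusted p under 0.05. The common biological coefficient of variation was 0.0353. Intervals are 95% intervals from the moderated standard error, without correction for the number of genes. Software was edgeR 4.0.16, DESeq2 1.42.0 and limma 3.58.1 under R 4.3.3, and the tests were tried on simulated data. Names, positions and lengths came from GENCODE release 44, which held 96.0% of the tested identifiers, and upstream sequences from RefSeq (GRCh38.p14).

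Members and lists were chosen with earlier results of these data known, and 1 list gene is not reported here. Named genes are the members, list genes that passed or had 10 counts or fewer, and the 3 genes most like a called member; other list genes were picked for naming with their values known. Alternatives were other tests, scalings, filters, a fold threshold, a block and leaving out each sample.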

Additional observations from a re-analysis of the deposited data

How the results depend on the processing

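PLAU, PLAUR and PLAT kept a positive log2 fold change and stayed short of the threshold under all 14 alternatives, with ranges of 0.030 to 0.058, 0.033 to 0.061 and 0.10 to 0.15. SERPINE2 stayed positive under all 14 and lost its call under 6 of them: with DESeq2 (0.24, adjusted p = 0.108) and when any sample other than DMSO replicate 3 was left out. With single samples left out its log2 fold change was 0.17 to 0.30. The number of genes called over all genes tested was 730, against 1322 with the replicate number as a block, 262 when a change of more than 1.2-fold was also required, and 398 to 870 with a sample left out. The fold threshold leaves 0 of the 4 tested members (1 passed the adjusted p alone with edgeR, and 0 passed with DESeq2). Of the genes of the 5 lists, 2 were called (ITGB3 and ITGA3), 4 with the replicate block, CTSB and HMGB1 being added, 1 (ITGB3) when a change of more than 1.2-fold was also required, and 1 to 2 with a sample left out, ITGA3 being lost without Olaparib replicate 3, DMSO replicate 2 or DMSO replicate 3. Same-numbered samples correlated in their deviations from the group means by -0.20, 0.26 and -0.32, and 2 of 6 samples correlated best with their own number, so the replicate numbers were not taken as pairs. Under the block the log2 fold change of SERPINE2 was 0.24 (adjusted p = 0.00882 from edgeR).

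Levels depend on the scale. As TMM-scaled FPKM they were 278 and 270 for PLAU after Olaparib and DMSO, 17.7 and 17.2 for PLAUR, 2.04 and 1.87 for PLAT, 1.35 and 1.14 for SERPINE2 and 0.0097 for SERPINB2 after DMSO, in the same order as the TPM. Per MANE Select transcript, PLAU had 878 and 862 TPM, PLAUR 145 and 142, PLAT 13.0 and 12.02, and SERPINE2 13.7 and 11.7, so PLAT and SERPINE2 changed places after Olaparib. Depth left SERPINB2 untested, and the standard error of the log2 fold change was larger for the members with fewer counts, from 0.026 for PLAU and 0.038 for PLAUR to 0.053 for PLAT and 0.065 for SERPINE2.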
